A study of Homo sapiens with 15 samples.

Results

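The 9 genes described here, HLA-B, HLA-C, HLA-E, B2M, TAP1, TAP2, TAPBP, PSMB9 and NLRC5, belong to the class I antigen presentation pathway and were picked by symbol from the tables of A375, a BRAF-mutant cell line set up from a human melanoma. All 9 were listed among the 16768 symbols of the vehicle and saracatinib libraries and among the 16295 symbols of the untreated libraries, of which 15703 were in both tables. The list does not hold every class I gene. It was chosen by measured values of these same libraries, so the members' differences between groups stand as a description, with no p-value. The members' level was at least 10 normalized counts in at least 3 libraries of each experiment, the filter for the fits across all genes, so none of the 9 was dropped. The 15 libraries formed 5 groups of 3. In the experiment of 9 libraries, A375 cells carried VAV1 and received saracatinib, carried VAV1 and received vehicle, or carried the empty vector and received vehicle. In the experiment of 6 libraries, A375 cells carried RAC1 P29S or the empty vector and were untreated. VAV1 is a guanine nucleotide exchange factor for GTPases such as RAC1, RAC1 P29S is an activated form of RAC1 found in melanoma, and saracatinib inhibits kinases of the SRC family. Neither dose nor time of saracatinib is in the labels, and no group joined the empty vector with saracatinib, so the effect of the inhibitor without VAV1 was not measured. Both genes were overexpressed in the line by vector, and the labels do not say whether the cells were clones or pools.

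Class I molecules display peptides from inside the cell to CD8+ T cells. A heavy chain, such as HLA-B or HLA-C, pairs with the light chain beta-2 microglobulin, the product of B2M. HLA-E is a heavy chain with few alleles that presents leader peptides of other heavy chains and is read by natural killer cells. The proteasome cuts proteins into peptides, TAP1 and TAP2 together pump them into the endoplasmic reticulum, and tapasin, encoded by TAPBP, holds the empty class I molecule at the transporter while it is loaded. PSMB9 is the interferon-induced proteasome subunit that takes the place of PSMB6 in the immunoproteasome. NLRC5 is a transactivator that binds at class I promoters through the RFX, CREB/ATF and NF-Y factors and is induced by interferon-gamma. In tumours, loss of these genes is a known route by which cells become less visible to T cells.

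The sequences just before the start sites of HLA-B, HLA-C and B2M are shown because the values below set the heavy chains against B2M. The HLA-B and HLA-C stretches are nearly alike, while that of B2M is not like them. Whether these sequences bear on the measured levels was not tested. The stretches come from RefSeq (GRCh38.p14), each 250 bases long and read 5′ to 3′ on the strand of the gene. Capitals mark matches to any of the searched motifs, which were the interferon response core GAAANNGAA, the gamma activated site TTCNNNGAA, the cyclic AMP response core TGACGT, the inverted CCAAT box ATTGG and the NF-kB motif, each on both strands. The HLA-B stretch lies at chr6:31357180-31357429 on the minus strand, the HLA-C stretch at chr6:31272093-31272342 on the minus strand and the B2M stretch at chr15:44711267-44711516 on the plus strand.
HLA-B: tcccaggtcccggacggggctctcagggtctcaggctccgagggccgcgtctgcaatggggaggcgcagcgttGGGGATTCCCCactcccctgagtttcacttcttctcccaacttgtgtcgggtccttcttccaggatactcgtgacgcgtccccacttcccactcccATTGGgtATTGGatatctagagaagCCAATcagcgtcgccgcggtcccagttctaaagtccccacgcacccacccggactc
HLA-C: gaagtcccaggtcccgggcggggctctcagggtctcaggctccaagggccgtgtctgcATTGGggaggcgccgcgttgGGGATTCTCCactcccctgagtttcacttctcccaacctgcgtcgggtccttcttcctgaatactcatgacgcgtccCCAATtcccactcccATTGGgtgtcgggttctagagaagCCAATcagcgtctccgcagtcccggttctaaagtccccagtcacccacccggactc
B2M: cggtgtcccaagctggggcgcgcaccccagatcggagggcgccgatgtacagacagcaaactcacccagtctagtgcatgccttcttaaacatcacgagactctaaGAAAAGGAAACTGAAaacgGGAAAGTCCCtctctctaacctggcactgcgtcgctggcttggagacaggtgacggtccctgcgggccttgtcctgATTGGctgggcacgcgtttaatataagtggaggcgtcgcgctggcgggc

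In a global alignment, the HLA-B and HLA-C stretches shared 226 of 254 aligned columns (89%), against 47.3% for HLA-B with B2M and 45.3% for HLA-C with B2M. All pairs of members other than HLA-B with HLA-C lay between 41.6% and 49.3%, so these values do not set B2M apart. HLA-B held 2 overlapping NF-kB matches, the first at -177 to -168 from the start, and HLA-C held 1 at -172 to -163. In B2M, 2 overlapping interferon response core matches lay at -144 to -136 and -138 to -130, next to an NF-kB match at -125 to -116 on the minus strand. All 3 stretches held the inverted CCAAT box. Over the window of 250 bases before to 50 after the start, 7 of the 9 members had an entry, and TAP1 had more than 1 window. The interferon response core was found in 4 of these 7 genes, B2M, TAP1, TAP2 and TAPBP, and in 8.11% of 35116 promoter windows. The NF-kB motif was found in 5, B2M, HLA-B, HLA-C, TAP1 and TAPBP, and in 5.91% of windows. The inverted CCAAT box was found in 5 of the genes and in 34.6% of windows. Its matches in TAP1 and PSMB9 are the same bases of chromosome 6, held in both windows. The gamma activated site was found in TAP1 alone, at -189 to -181 in window 2, which belongs to another start of the gene, and in 7.66% of windows. The cyclic AMP response core was found in none of the 7 and in 7.98%. The counts are by gene and the shares by window. A match describes letters in the window and is not a binding site, and a missing match says nothing of the factor. Each search used a fixed pattern, so a variant form of an element would be missed, in HLA-B and HLA-C as elsewhere. HLA-E and NLRC5 are not shown.

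In GRCh38 with GENCODE release 29, HLA-E lies on chromosome 6 at 30489467 to 30494205, HLA-C at 31268749 to 31272130 and HLA-B at 31269491 to 31357188, an annotated span that overlaps HLA-C. TAP2 (32821833 to 32838780), TAP1 (32845209 to 32853978), PSMB9 (32844136 to 32859585) and TAPBP (33299694 to 33314387) lie on the same chromosome. TAP1 and PSMB9 have gene models that overlap on opposite strands, and their RefSeq starts lie 488 bases apart. The TAP2 gene model overlaps that of AL669918.1, a protein-coding gene on the same strand. B2M lies on chromosome 15 at 44711487 to 44718877 and NLRC5 on chromosome 16 at 56989485 to 57083531. The sources used here do not say whether counting used strand. Whether reads from sequence that overlapping genes share were told apart is thus not known. Of the distinct 31-base words in the transcripts, 37.6% for HLA-B and 19.3% for HLA-C also occurred in transcripts of other genes. The share was 13% for HLA-E, 33% for TAP2, 16.3% for TAP1, 12.3% for PSMB9 and 12% for TAPBP. It was 0 for B2M and NLRC5. HLA genes also vary between people and cell lines. How reads shared between such genes, or reads of alleles other than those of the reference, were assigned is not given, so the split between HLA-B and HLA-C is uncertain. The assignment of reads that TAP2 shares with other genes is not given either, so its level is uncertain too.

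With the log undone, normalized counts summed to between 14443918 and 16262759 per library; read numbers are not given in the sources used here. Across genes, libraries correlated at 0.980 to 0.985 within groups and at 0.956 to 0.972 between groups of an experiment. VAV1 lay at 14.12 ± 0.03 in VAV1 cells with saracatinib, 13.91 ± 0.04 in VAV1 cells with vehicle and 2.22 ± 0.30 in empty-vector cells with vehicle (SD of log2 values, n = 3 each). RAC1 lay at 14.93 ± 0.04 in RAC1 P29S cells and 11.88 ± 0.02 in untreated empty-vector cells. For the 3 RAC1 P29S samples the genotype field names the empty vector. The groups here follow the sample titles, which the RAC1 level separates in the same way. The neural crest factor SOX10 was between 10.77 and 13.26 in every library and PMEL, MLANA, TYR and DCT, pigment genes, stayed at or below 5.49 where listed. SOX10 in VAV1 cells was higher by 0.63 with saracatinib than with vehicle, and its difference from the empty-vector cells was -2.07 in VAV1 cells with vehicle and -1.10 in RAC1 P29S cells. MITF, the melanocyte transcription factor, had the opposite signs, at -1.09, 1.57 and 1.23 in these 3 comparisons. S100A1 and S100B had the signs of SOX10, at 1.49 and 0.90 for saracatinib against vehicle, -3.07 and -3.14 for VAV1 with vehicle, and -2.54 and -1.98 for RAC1 P29S. The 3 haematopoietic markers with values, of 5 in the list, summed to 5.54 to 10.1 normalized counts in VAV1 cells with saracatinib, 4.84 to 11.9 in VAV1 cells with vehicle and 7.61 to 13.1 in empty-vector cells with vehicle. In the untreated libraries 2 of the 5 had values and summed to 4.44 to 27.7 in RAC1 P29S cells and 7.38 to 14.7 in empty-vector cells. The endothelial markers summed to 26.6 to 65.0 in VAV1 cells with saracatinib, 10.7 to 16.9 in VAV1 cells with vehicle and 8.52 to 16.4 in empty-vector cells with vehicle, and to 4.50 to 22.5 in RAC1 P29S cells and 15.7 to 18.9 in untreated empty-vector cells. Of the 3 epithelial markers, 2 had values, and their sum was nearly all KRT18, at 6839 to 7231, 11101 to 12058 and 5001 to 5718 normalized counts in VAV1 cells with saracatinib, VAV1 cells with vehicle and empty-vector cells with vehicle, and at 5341 to 5944 in RAC1 P29S cells against 2620 to 3019 in untreated empty-vector cells. The part of these lineage markers in the class I values was not tested.

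Values below are log2(normalized count + 1), scaled within each experiment, and differences are on the same scale with the SE of the fit. For changes of a heavy chain minus B2M, the SE comes from the 2 groups compared alone and not from the fit. The design text calls each group a biological triplicate but does not mention separate transductions. Errors and p-values therefore cover only the spread among these libraries, and those of the fits pool it across groups. In RNA from whole cultures, a lower level in every cell and fewer cells with a high level cannot be told apart.

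HLA-B, a classical heavy chain, had the widest range of the 9 genes across the vehicle and saracatinib libraries. It lay at 10.74, 10.77 and 10.84 in the VAV1 libraries with saracatinib, 9.30, 9.23 and 9.15 in the VAV1 libraries with vehicle, and 11.36, 11.23 and 11.27 in the empty-vector libraries with vehicle. The VAV1 libraries with vehicle were lowest, those with saracatinib lay in between, and no groups overlapped. In VAV1 cells with vehicle HLA-B differed from empty-vector cells by -2.06 ± 0.06 (SE), a 4.17-fold lower level. In VAV1 cells with saracatinib it was higher than in VAV1 cells with vehicle by 1.56 ± 0.06 (2.95-fold), and still below empty-vector cells with vehicle, with a difference of -0.50 ± 0.06. In the untreated experiment HLA-B lay at 10.69, 10.68 and 10.72 in RAC1 P29S libraries, against 12.50, 12.55 and 12.34 in empty-vector libraries. Every RAC1 P29S library was below every empty-vector library, with a difference of -1.77 ± 0.06 between the means (3.41-fold lower).

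HLA-C, the other classical heavy chain of the list, followed the same order with smaller steps. It lay at 11.05, 11.36 and 11.17 in VAV1 libraries with saracatinib, 10.19, 10.39 and 10.26 in VAV1 libraries with vehicle, and 11.63, 11.35 and 11.32 in empty-vector libraries with vehicle. The VAV1 libraries with vehicle were lowest without overlap, while 1 saracatinib library lay within the range of the empty-vector ones. HLA-C was lower (-1.15 ± 0.09) in VAV1 cells with vehicle than in empty-vector cells, and higher by 0.91 ± 0.09 in VAV1 cells with saracatinib than with vehicle. Against empty-vector cells the saracatinib libraries differed by -0.24 ± 0.09. In RAC1 P29S libraries HLA-C lay at 10.87, 10.92 and 10.89, against 12.15, 12.27 and 12.08 in untreated empty-vector libraries, without overlap and lower (-1.28 ± 0.06).

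HLA-E, the heavy chain that carries leader peptides, differed in the same direction by less. Its values were 10.10 to 10.24 in VAV1 libraries with saracatinib, 9.73 to 9.87 in VAV1 libraries with vehicle and 10.19 to 10.21 in empty-vector libraries with vehicle. It was lower (-0.40 ± 0.06) in VAV1 cells with vehicle than in empty-vector cells and higher by 0.39 ± 0.06 in VAV1 cells with saracatinib than with vehicle. The saracatinib libraries then overlapped the empty-vector ones, with a difference of -0.01 ± 0.06. In RAC1 P29S libraries HLA-E was 10.34 to 10.52, against 10.73 to 11.03 in untreated empty-vector libraries, lower (-0.44 ± 0.08).

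**Figure D1:**
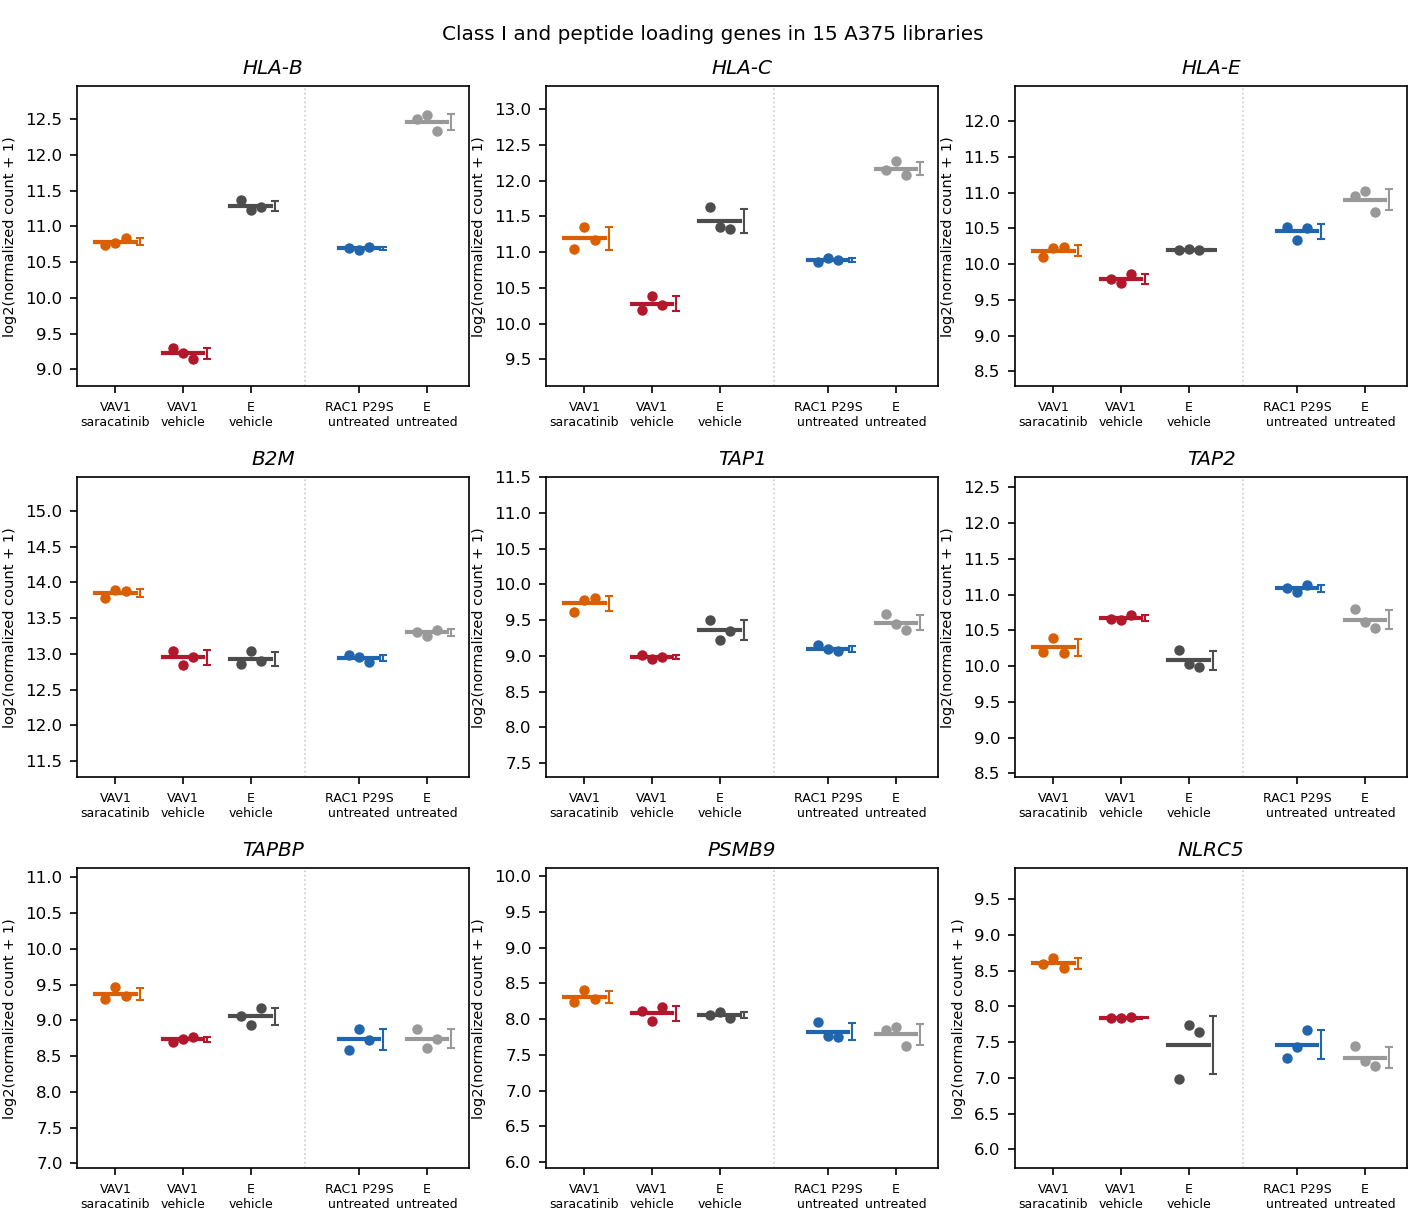
Log2(normalized count + 1) of the 9 genes in each of the 15 libraries, as points, with a line at the mean of each group of 3 and an error bar for its SD. The y axes all span the same number of log2 units but start at different values, and E stands for the empty vector. HLA-B at 9.15 to 9.30 in VAV1 libraries with vehicle stands below its other groups, and B2M at 13.78 to 13.89 in VAV1 libraries with saracatinib stands above its other groups.

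B2M, the light chain shared by all class I molecules, was not lower in VAV1 cells with vehicle, unlike the heavy chains, and was higher with saracatinib, as they were. It lay at 13.78, 13.89 and 13.88 in VAV1 libraries with saracatinib, 13.05, 12.85 and 12.96 in VAV1 libraries with vehicle, and 12.86, 13.05 and 12.91 in empty-vector libraries with vehicle. The vehicle groups overlapped, with a difference of 0.02 ± 0.06 for VAV1 minus empty vector, while every saracatinib library was above both. B2M was higher in VAV1 cells with saracatinib by 0.90 ± 0.06 than with vehicle (1.86-fold) and by 0.92 ± 0.06 than in empty-vector cells with vehicle (1.89-fold). In the untreated experiment B2M lay at 12.98, 12.96 and 12.89 in RAC1 P29S libraries and at 13.31, 13.25 and 13.34 in empty-vector libraries. There the groups did not overlap, and RAC1 P29S cells were lower (-0.36 ± 0.04).

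The heavy chains were also set against B2M within each library. For HLA-B, the difference of log2 values from B2M averaged -3.07 ± 0.04 in VAV1 cells with saracatinib, -3.73 ± 0.10 in VAV1 cells with vehicle and -1.65 ± 0.16 in empty-vector cells with vehicle (SD, n = 3 each). Relative to B2M, HLA-B in VAV1 cells differed from empty-vector cells with vehicle by -1.42 ± 0.10 with saracatinib and by -2.08 ± 0.11 with vehicle (SE). HLA-C minus B2M was -2.66 ± 0.11 in VAV1 cells with saracatinib and -2.67 ± 0.20 in VAV1 cells with vehicle, which overlapped, against -1.50 ± 0.24 in empty-vector cells with vehicle. The difference between HLA-C and B2M changed by 0.01 ± 0.13 between these VAV1 groups. HLA-E minus B2M was -3.67 ± 0.02 in VAV1 cells with saracatinib, -3.16 ± 0.09 in VAV1 cells with vehicle and -2.74 ± 0.09 in empty-vector cells with vehicle. HLA-E minus B2M was thus lower with saracatinib than with vehicle (-0.51 ± 0.05), while the level of HLA-E itself was higher. In RAC1 P29S cells, against untreated empty-vector cells, the difference from B2M changed by -1.41 ± 0.09 for HLA-B and by -0.92 ± 0.09 for HLA-C. That of HLA-E overlapped between these groups, at a change of -0.09 ± 0.13.

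**Figure D2:**
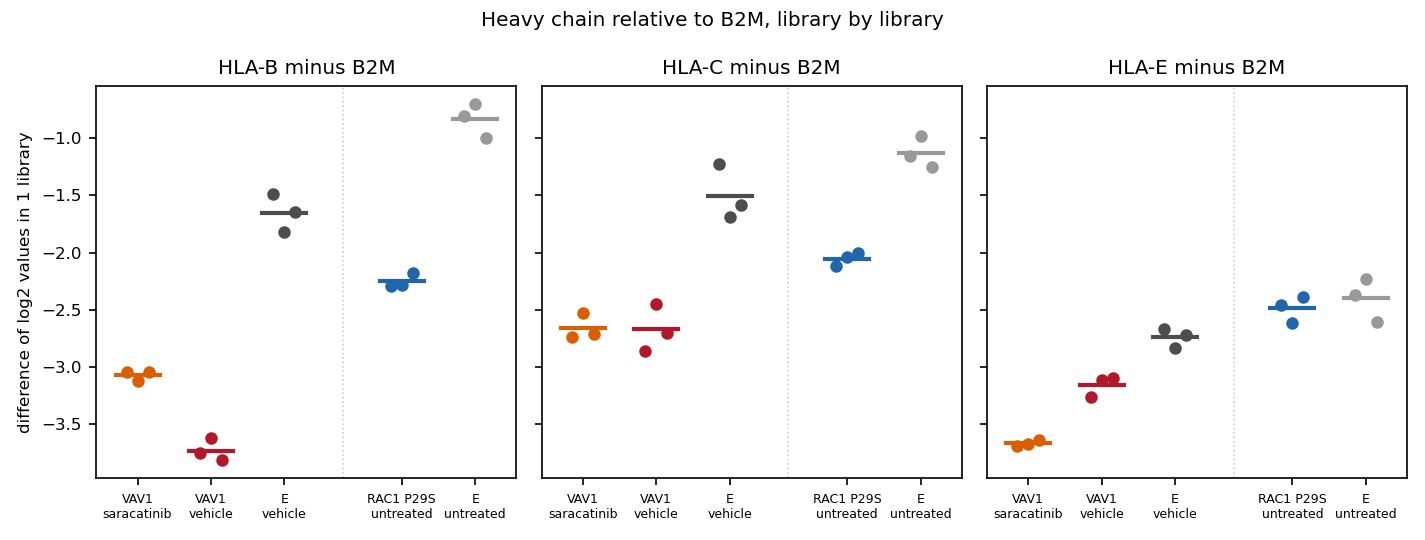
Log2 value of each heavy chain minus that of B2M in the same library, for the 15 libraries as points, with a line at each group mean. HLA-B minus B2M averages -3.07, -3.73 and -1.65 in VAV1 cells with saracatinib, VAV1 cells with vehicle and empty-vector cells with vehicle, and HLA-E minus B2M is lowest in the saracatinib libraries.

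The transporter genes TAP1 and TAP2 differed in opposite directions with VAV1 in vehicle, with saracatinib against vehicle in VAV1 cells, and with RAC1 P29S. TAP1 lay at 9.61, 9.79 and 9.81 in VAV1 libraries with saracatinib, 9.01, 8.96 and 8.98 in VAV1 libraries with vehicle, and 9.50, 9.22 and 9.35 in empty-vector libraries with vehicle. No groups overlapped, and the saracatinib libraries were highest. TAP1 was lower (-0.37 ± 0.08) in VAV1 cells with vehicle than in empty-vector cells, and higher in VAV1 cells with saracatinib than with vehicle by 0.75 ± 0.08. In RAC1 P29S libraries it was 9.15, 9.09 and 9.07, against 9.58, 9.45 and 9.37 in untreated empty-vector libraries, lower (-0.37 ± 0.08) without overlap.

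TAP2 lay at 10.20, 10.39 and 10.19 in VAV1 libraries with saracatinib, 10.67, 10.64 and 10.71 in VAV1 libraries with vehicle, and 10.23, 10.03 and 9.98 in empty-vector libraries with vehicle. Here the VAV1 libraries with vehicle were highest, above both other groups, which overlapped. TAP2 was higher by 0.59 ± 0.08 in VAV1 cells with vehicle than in empty-vector cells (1.51-fold), and lower (-0.41 ± 0.08) in VAV1 cells with saracatinib than with vehicle. In RAC1 P29S libraries TAP2 was 11.09, 11.04 and 11.14, against 10.79, 10.62 and 10.53 in untreated empty-vector libraries, higher by 0.44 ± 0.07.

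TAPBP, which encodes tapasin, lay at 9.30 to 9.47 in VAV1 libraries with saracatinib, 8.70 to 8.77 in VAV1 libraries with vehicle and 8.94 to 9.17 in empty-vector libraries with vehicle. These groups did not overlap. It was lower (-0.32 ± 0.08) in VAV1 cells with vehicle than in empty-vector cells and higher by 0.64 ± 0.08 in VAV1 cells with saracatinib than with vehicle. In the untreated experiment its values, 8.59 to 8.87 in RAC1 P29S libraries and 8.61 to 8.87 in empty-vector libraries, overlapped. PSMB9, the immunoproteasome subunit, had the narrowest range in the experiment of 9 libraries, at 8.24 to 8.41 in VAV1 libraries with saracatinib, 7.97 to 8.17 in VAV1 libraries with vehicle and 8.02 to 8.10 in empty-vector libraries with vehicle. It was higher by 0.22 ± 0.10 in VAV1 cells with saracatinib than with vehicle, without overlap. The difference between the vehicle groups was 0.02 ± 0.10, and that between RAC1 P29S and untreated empty-vector libraries, at 7.75 to 7.96 against 7.62 to 7.89, was 0.04 ± 0.12.

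NLRC5, the transactivator, was not lower where the heavy chains were, in VAV1 cells with vehicle and in RAC1 P29S cells, but like them it was higher in VAV1 cells with saracatinib than with vehicle. It lay at 8.59, 8.68 and 8.54 in VAV1 libraries with saracatinib, 7.84, 7.83 and 7.85 in VAV1 libraries with vehicle, and 6.99, 7.73 and 7.64 in empty-vector libraries with vehicle. Empty-vector replicate 1 lay well below the other two. VAV1 cells with vehicle were above empty-vector cells by 0.39 ± 0.16 without overlap, and by 0.15 when empty-vector replicate 1 was left out. NLRC5 was higher by 0.76 ± 0.16 in VAV1 cells with saracatinib than with vehicle and by 1.15 ± 0.16 than in empty-vector cells with vehicle (2.22-fold). The difference from empty-vector cells was 0.91 when empty-vector replicate 1 was left out. In RAC1 P29S libraries it was 7.27, 7.43 and 7.67, against 7.44, 7.23 and 7.16 in untreated empty-vector libraries, which overlapped.

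Read together by comparison, VAV1 cells with vehicle had 5 members lower and 1 higher than empty-vector cells past an adjusted p of 0.05 in a limma fit over 14410 genes, while 20.1% of all genes tested were lower and 23.6% higher. The members' median difference was -0.32, against 0.02 over all genes tested. In VAV1 cells with saracatinib against VAV1 cells with vehicle, 7 members were higher and 1 lower, at 18.3% and 19.1% of all genes, with a median of 0.75 against -0.01. Against empty-vector cells with vehicle, VAV1 cells with saracatinib had 4 members higher and 1 lower, at 22.4% and 21.0%, with a median of 0.25 against 0.0038. These comparisons share libraries, and their values stand side by side without a test of their likeness. In RAC1 P29S cells against untreated empty-vector cells, 1 member was higher and 5 lower, at 15.6% and 15.5%, with a median of -0.36 against -0.0043. Since the members were chosen with these contrasts known, nothing is read from these counts.

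For the effect of VAV1 in vehicle minus that of RAC1 P29S, fitted over all 15 libraries, 1 member was higher and 1 lower past the same threshold, while 8.14% and 7.70% of 13810 genes were, and nothing is read from this count either. The difference of effects was 0.37 ± 0.08 for B2M, -0.29 ± 0.08 for HLA-B and -0.31 ± 0.13 for TAPBP. For TAP1 it was -0.00 ± 0.11, for HLA-E 0.04 ± 0.10 and for HLA-C 0.12 ± 0.12. VAV1 and RAC1 P29S cells belong to separate experiments, with separate empty-vector cells and with vehicle in only the VAV1 experiment, so the experiment and the transgene cannot be told apart in this difference.

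**Figure D3:**
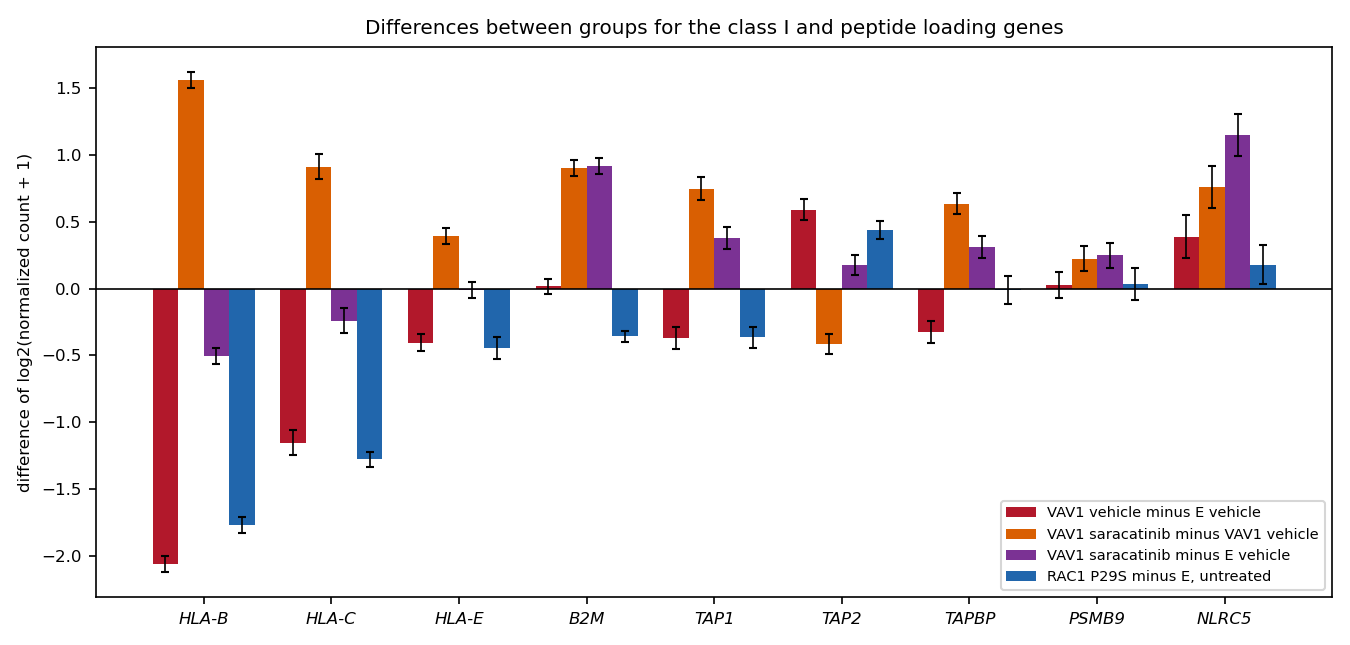
Log2 difference of each member in the 4 comparisons of 2 groups, as bars of the first-named group minus the second, with the SE of the fit. HLA-B is at -2.06 for VAV1 with vehicle and at -1.77 for RAC1 P29S against their empty-vector cells, and at 1.56 for saracatinib against vehicle in VAV1 cells, while TAP2 has the opposite sign in these 3.

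The genes with the profile nearest to that of HLA-B, by root mean square difference over the 15 libraries after the empty-vector mean of each experiment was taken off, were TRAF1 at 0.15, KLF9 at 0.16 and BMP8B at 0.20, out of 13809 genes. HLA-C came 130th at 0.49. TRAF1 was lower (-2.22 ± 0.13) in VAV1 cells with vehicle than in empty-vector cells and higher by 1.85 ± 0.13 in VAV1 cells with saracatinib than with vehicle. Nearest to B2M were PLIN2 at 0.098, ATP2B1 at 0.113 and PNPLA8 at 0.114, with TAP1 the closest member at rank 698. Nearest to NLRC5 were AVPI1, NNMT and SQLE, each at 0.199, and B2M was the closest member, at rank 361. Libraries share their scaling and controls, so these distances describe profiles and carry no test.

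A list of 43 further genes of the pathway, its regulators and its repressors was compared in the same fits, and 42 had values that passed the filter, while HLA-G was not analysed here. In VAV1 cells with vehicle, 8 rose and 9 fell against empty-vector cells, shares of the 42 near the 23.6% and 20.1% of all genes tested, with a median of 0.05 against 0.02 over all genes tested, and 12 of the 17 kept the call in all 21 alternatives. Among heavy chains, HLA-F fell by 1.09 ± 0.19 (limma adjusted p = 0.000373), with 5.18, 4.76 and 5.10 in VAV1 libraries with vehicle, against 6.13, 6.15 and 6.04 in empty-vector libraries with vehicle. IFNGR2, a chain of the interferon-gamma receptor, fell by 0.74 ± 0.08 (adjusted p = 4.79e-06) and NFKB1, an NF-kB subunit, by 0.51 ± 0.06 (adjusted p = 1.15e-05). Of the 8 partners of NLRC5, 2 fell, and RFX5 fell by 0.37 ± 0.06 (adjusted p = 0.000227). IRF1, a transcription factor of the interferon-gamma response, rose by 0.46 ± 0.11 (adjusted p = 0.00472). The 3 constitutive proteasome subunits rose, among them PSMB6, the counterpart of PSMB9, by 0.21 ± 0.06 (adjusted p = 0.0108). WWP2, a ubiquitin ligase that lowers class I at the surface, fell by 0.80 ± 0.05 (adjusted p = 7.12e-08).

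In VAV1 cells with saracatinib 8 of the 42 were higher and 5 lower than with vehicle, while 18.3% and 19.1% of all genes were, so the shares of the 42 were near or below those. The 42 had a median of 0.06 against -0.01 over all genes, and 9 kept the call in all 21 alternatives. HLA-F rose by 1.24 ± 0.19 (limma adjusted p = 0.000172), with 6.17, 6.22 and 6.38 in VAV1 libraries with saracatinib. ERAP1, an aminopeptidase that trims peptides in the endoplasmic reticulum, rose by 0.60 ± 0.09 (adjusted p = 0.000196), and the proteasome activator subunit PSME1 rose by 0.38 ± 0.06 (adjusted p = 0.000350). PSMB6 fell by 0.38 ± 0.06 (adjusted p = 0.000253). Among the repressors, EZH2, the catalytic subunit of the Polycomb complex that silences class I genes, fell by 0.59 ± 0.06 (adjusted p = 5.95e-06), and TMEM127, which helps route class I to lysosomes, rose by 0.44 ± 0.06 (adjusted p = 0.000109).

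Against empty-vector cells with vehicle, VAV1 cells with saracatinib had 14 of the 42 higher and 8 lower, while 22.4% and 21.0% of all genes were, with a median of 0.09 against 0.0038 over all genes, and 12 of the 22 kept the call in all 21 alternatives. All 4 of the other immunoproteasome and activator genes were higher. PSMB8 and PSMB10 rose by 0.36 ± 0.07 and 0.33 ± 0.09 (limma adjusted p = 0.00165 and 0.00773) and passed in all 21 alternatives, whereas PSME1 (0.20 ± 0.06, adjusted p = 0.0212) passed in 18 and PSME2 (0.18 ± 0.07, adjusted p = 0.0405) in 12. Of 7 genes of the interferon-gamma route, 4 were higher and 1 lower. IFNGR2 fell by 0.72 ± 0.08 (adjusted p = 7.50e-06), while IFNGR1 rose by 0.38 ± 0.10 (adjusted p = 0.00646) and IRF1 by 0.40 ± 0.11 (adjusted p = 0.0111). NFKB1 fell by 0.46 ± 0.06 (adjusted p = 3.40e-05). Among 7 repressors, 2 were lower and 1 higher. WWP2 fell by 0.83 ± 0.05 (adjusted p = 7.32e-08) and EZH2 by 0.68 ± 0.06 (adjusted p = 1.42e-06), while TMEM127 rose by 0.33 ± 0.06 (adjusted p = 0.000865). For WWP2, NFKB1 and IFNGR2 the saracatinib and vehicle VAV1 libraries lay close together, at 9.86 to 9.89 against 9.86 to 9.96 for WWP2.

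In RAC1 P29S cells 6 of the 42 companion genes were lower than in untreated empty-vector cells, a share near the 15.5% of all genes that were lower, and none was higher in limma, against 15.6% of all genes. In either direction 11 of the 42 had an unadjusted p under 0.05. The 42 had a median of -0.06 against -0.0043 over all genes, and 4 kept the call in all 18 alternatives. IFNGR2 fell by 0.74 ± 0.07 (limma adjusted p = 3.33e-05), RFX5 by 0.33 ± 0.06 (adjusted p = 0.00241), NFKB1 by 0.29 ± 0.05 (adjusted p = 0.00182) and PSME2, an activator subunit, by 0.35 ± 0.06 (adjusted p = 0.00144). WWP2 fell by 0.29 ± 0.07 (adjusted p = 0.0107), which became 0.0508 without the variance trend and robust estimation. The endoplasmic reticulum chaperone CALR fell by 0.15 ± 0.04 (adjusted p = 0.0126), and without RAC1 P29S replicate 1 its adjusted p was 0.0588. HLA-F differed by -0.20 ± 0.24 (adjusted p = 0.556).

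Between the experiments, the effect of VAV1 in vehicle minus that of RAC1 P29S was tested for the same genes, and 6 were higher and 2 lower, while 8.14% and 7.70% of all genes were (median 0.05, against 0.01 over all genes). Of these 8, 3 kept the call in all 25 alternatives. They were IRF1 at 0.57 ± 0.15 (limma adjusted p = 0.0164), the proteasome subunit PSMB5 at 0.25 ± 0.06 (adjusted p = 0.0134) and WWP2 at -0.50 ± 0.09 (adjusted p = 0.000757).

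**Figure D4:**
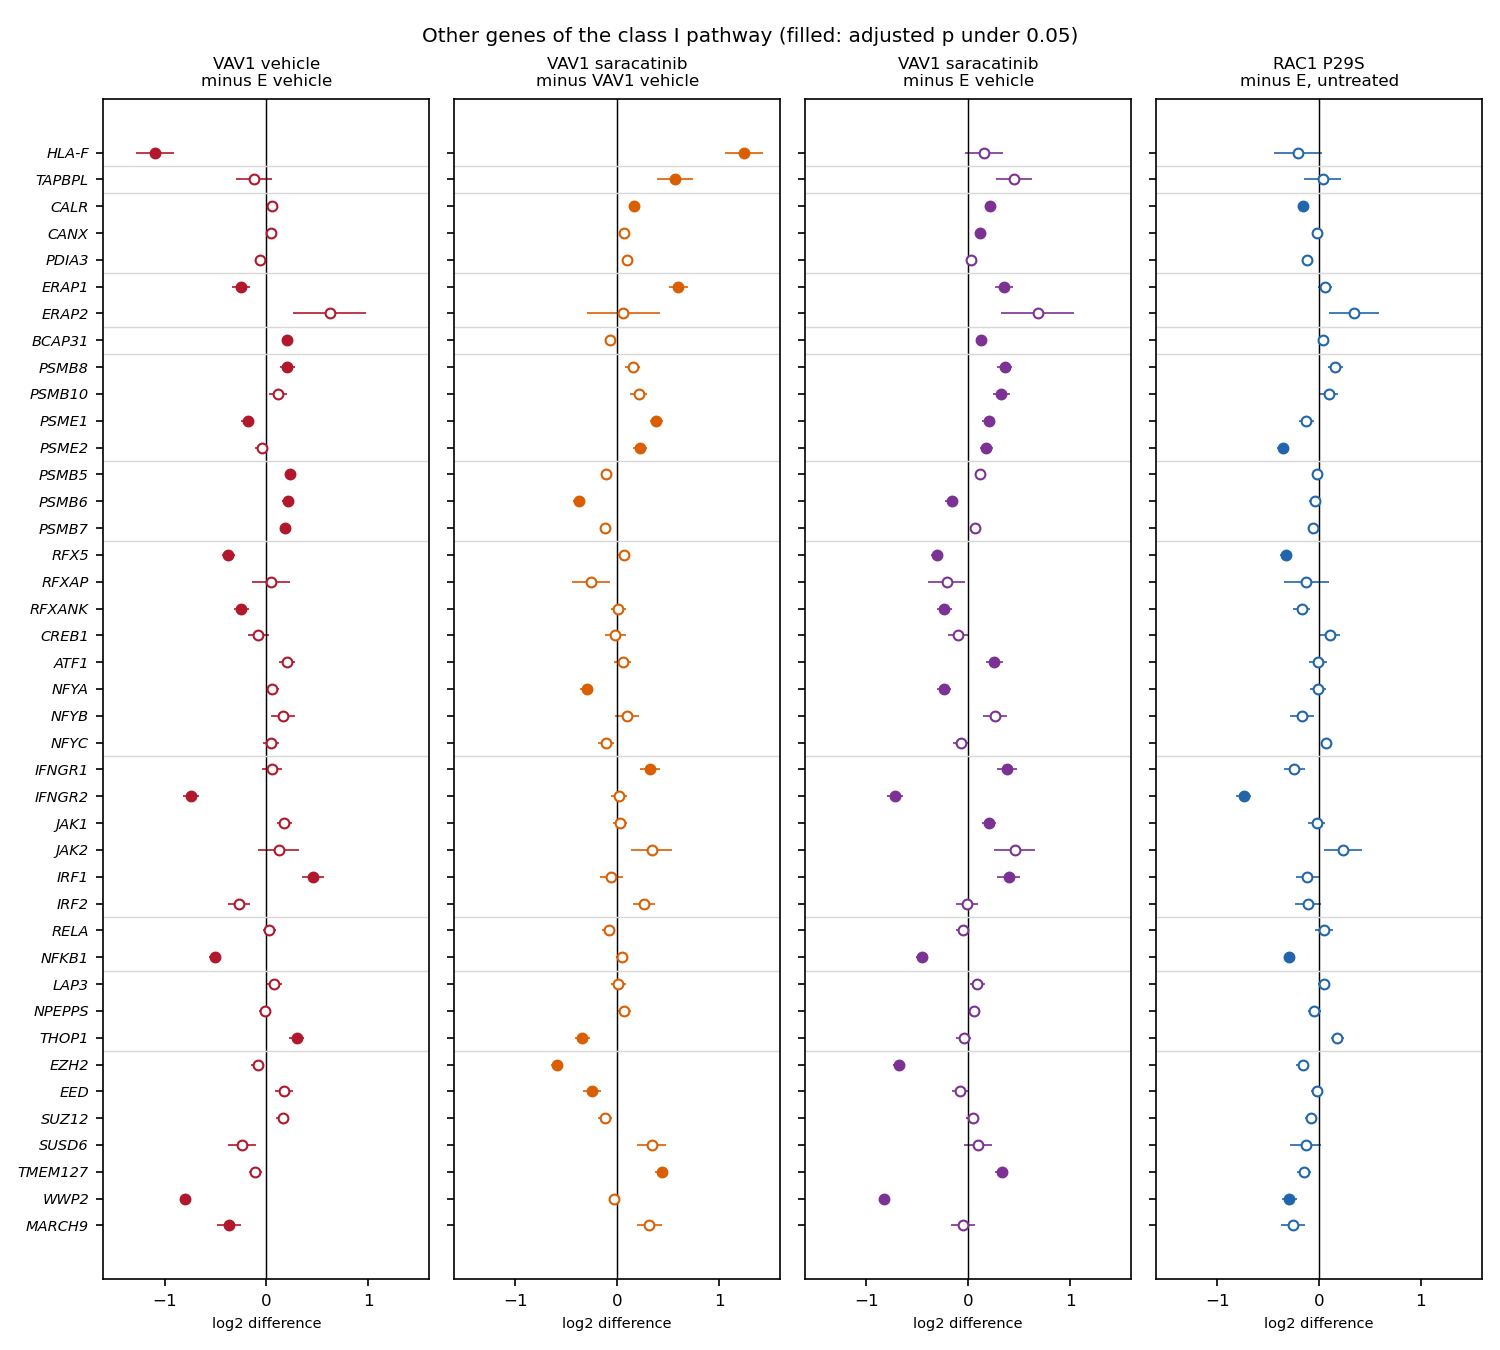
Log2 difference, with SE, of companion genes in the 4 comparisons of 2 groups, ordered by role, with filled points past an adjusted p of 0.05. HLA-F is at -1.09 for VAV1 with vehicle against the empty vector and at 1.24 for saracatinib against vehicle in VAV1 cells, and IFNGR2 is at -0.74 for VAV1 with vehicle and at -0.74 for RAC1 P29S against their empty-vector cells.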

How the data were processed

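RNA of 15 A375 libraries was sequenced after an Illumina TruSeq preparation of total RNA, per the labels' protocols. Each file the authors deposited holds log2 values by gene symbol for 1 library, read here as log2(normalized count + 1). The submitters' processing notes name kallisto, DESeq2 and GRCh38, without versions or settings. The values were scaled within each experiment. Number of reads and strand of counting are not given in the sources used here. Sample titles set the groups.

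From these values, limma 3.58.1 in R 4.3.3 fitted 1 mean per group with a mean-variance trend and robust empirical Bayes, two-sided, with Benjamini-Hochberg adjustment over all genes tested and a threshold of 0.05. The 9 vehicle and saracatinib libraries (14410 genes) and the 6 untreated libraries (14036 genes) had separate fits, and for the difference of effects all 15 entered. A gene was kept where 3 or more libraries reached a normalized count of 10. The members went through the same fits, and their places past the threshold are given as counts from which nothing is read. The members, the 43 companion genes and the motifs were chosen with earlier results of these data known. All members are named, and of the companions up to 4 per role and comparison with the smallest adjusted p among those past the threshold, of which the text prints some; 1 companion is counted but not reported here by name. Alternatives were 4 scalings, 2 filters, pseudocounts of 4 and 16, other libraries in the fit, no trend or robust estimation, a replicate block and leaving out each library. The code of the fit was run on simulated data with independent noise and far fewer changed genes than passed the threshold here. Error rates in these libraries were not tested by it.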

Additional observations from a re-analysis of the deposited data

Results flagged for a closer look

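For 8 companion genes the test of the difference itself, the VAV1 effect in vehicle minus the RAC1 P29S effect, passed the threshold in limma over all genes tested (adjusted p under 0.05). The difference was 0.21 ± 0.05 for the chaperone CALR (adjusted p = 0.00994), 0.57 ± 0.15 for IRF1 (adjusted p = 0.0164) and 0.31 ± 0.09 for the proteasome activator subunit PSME2 (adjusted p = 0.0206). It was 0.25 ± 0.06 for PSMB5, 0.26 ± 0.08 for PSMB6 and 0.24 ± 0.07 for PSMB7 (adjusted p = 0.0134, 0.0425 and 0.0171), the constitutive proteasome subunits. It was -0.50 ± 0.09 for WWP2 (adjusted p = 0.000757) and -0.89 ± 0.29 for HLA-F (adjusted p = 0.0497). Of 25 alternatives, PSMB7 passed in 24, CALR in 23, PSME2 in 21, PSMB6 in 12 and HLA-F in 6. The HLA-F call was lost in 14 of 15 fits that left out 1 library, with adjusted p between 0.0312 and 0.127. Vehicle was given in only the VAV1 experiment, so transgene and experiment cannot be told apart.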

How the results depend on the processing

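No companion gene past the threshold changed sign, and the counts over all genes stayed within 1.5 times in all alternatives run. Of the companion genes, 10 passed in RAC1 P29S against untreated empty-vector cells when all 15 libraries shared 1 fit, against 6. In the difference of effects, 5 companions passed with a replicate block, against 8, and 5 to 8 when each library was left out, with 5 without empty-vector replicate 3 or VAV1 replicate 3 of the vehicle groups. Of the members, 1 passed there without variance trend and robust estimation and 1 with the replicate block, against 2, and 1 to 2 when each library was left out, with 1 without vehicle-treated empty-vector replicate 1, vehicle-treated VAV1 replicate 3, untreated empty-vector replicate 3 or RAC1 P29S replicate 3. HLA-E minus B2M in VAV1 cells with saracatinib against empty-vector cells was -0.86 with quantile normalization, against -0.93. Upper-quartile scaling put 40.2% of genes higher in the difference of effects, against 51.4%, and shifted its median by -0.04. Replicate numbers gave no sign of pairing, with residual correlations of same-numbered libraries of -0.0547 to 0.0125, and the replicate block changed no other count by over 1.5 times. Members' differences near 0 changed sign in some alternatives: B2M (-0.03 to 0.07) and PSMB9 (-0.02 to 0.08) in VAV1 cells with vehicle, HLA-E in VAV1 cells with saracatinib against empty-vector cells (-0.04 to 0.03), and PSMB9 (-0.05 to 0.09) and TAPBP (-0.08 to 0.06) in RAC1 P29S cells. In the difference of effects HLA-E (-0.02 to 0.12), TAP1 (-0.07 to 0.07) and PSMB9 (-0.06 to 0.07) did. NLRC5, at 0.21 in the main fit of that difference, also changed sign (-0.03 to 0.35). So did HLA-C minus B2M for saracatinib against vehicle in VAV1 cells (-0.08 to 0.12). NLRC5 in VAV1 cells with vehicle ranged between 0.15 and 0.53 when each library was left out. With 3 libraries a group and no read counts, small changes of genes with low values could be missed.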
